A study of Mus musculus with 4 samples.

Results

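The 35 genes described here encode the enzymes of cholesterol synthesis and of fatty acid synthesis, the SREBP proteins that control both pathways, and proteins that take up, move or export lipid. They were taken from a list of gene names, not by their values, and were divided by role into sterol synthesis (17 genes), SREBP regulators (5 genes), fatty acid synthesis (9 genes) and uptake, transfer and efflux (4 genes). They were found through RefSeq accessions on the array, and the brightest probe of each gene was read. Of the 35 genes, 34 passed the filter on dim probes, among 20051 genes tested in all, of which 12304 had a symbol. The remaining gene, Abca1, which encodes a cholesterol exporter, was not well above background in either channel on any of the 4 arrays.

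Expression was measured on 4 two-colour mouse microarrays in cell lines isolated as spontaneous immortal clones from fetal liver transduced with p185 BCR-ABL1, the shorter form of the leukaemia fusion kinase. R/R lines carried the knock-in alleles Cdk4 R24C and Cdk6 R31C in both copies, which give cyclin D-dependent kinases that INK4 inhibitors are known not to bind. Wild-type (WT) lines were transformed with the same p185 BCR-ABL1 transgene, and both genotypes were on a mixed C57BL/6J x CD-1 background and grew asynchronously in RPMI medium. RNA of R/R clones 1, 2 and 3, each a single clone, was labelled with Cy5 and set against a WT pool in Cy3, and an R/R pool in Cy3 was set against the WT pool in Cy5. The series' design text counts 3 control replicates, but what each pool held is not given in the sources used here, and the identifiers of clones 1 and 2 begin with the same number. Values are log2 ratios of R/R over the WT pool, with the sign of the dye-swapped pool array turned, so a positive value means a higher level in R/R cells.

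Cells build cholesterol from acetyl-CoA through the mevalonate pathway, which ends at squalene, and then through the ring closure and trimming of lanosterol. Fatty acids are built from the same acetyl-CoA by carboxylation, chain elongation and desaturation. Both routes are controlled by SREBP transcription factors, which the escort protein SCAP carries out of the endoplasmic reticulum when sterols are low and which INSIG proteins hold back when sterols are high. SREBP-2, encoded by Srebf2, mainly drives sterol genes, and SREBP-1c, encoded by Srebf1, mainly drives fatty acid genes. Dividing cells need both kinds of lipid for new membrane. SREBP often acts beside NF-Y, a factor that binds CCAAT boxes.

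Promoter sequences are shown for the genes on which the results turn. They are the 4 sterol genes that lay lowest in clone 1 relative to clones 2 and 3 (Hmgcs1, Cyp51, Mvd and Mvk), the sterol gene with the highest fitted value (Idi1), a sterol gene that differed little between clones (Acat2), the fatty acid synthase gene (Fasn) and the gene that passed the test (Vldlr). Acat2 (clone SD 0.079) has no CCAAT box. Dhcr7 (0.048) and Ebp (0.10), not shown, also differed little between clones, and both have CCAAT boxes. Each run is the 150 bases before the RefSeq start in GRCm38.p6, 5′ to 3′ on the strand of the gene. Capitals mark CCAAT boxes, as CCAAT or its reverse complement ATTGG, and the sterol regulatory element core TCACNCCAC on either strand. In Fasn, 2 of the CCAAT matches overlap in a single capital run. Of the 2 RefSeq promoters of Vldlr, the one that holds a CCAAT box is shown.
Hmgcs1 (chr13:119690201-119690350, plus strand): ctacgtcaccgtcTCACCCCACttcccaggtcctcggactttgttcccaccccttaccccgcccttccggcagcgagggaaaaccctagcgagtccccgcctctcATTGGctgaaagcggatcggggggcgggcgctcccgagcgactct
Cyp51 (chr5:4104698-4104847, minus strand): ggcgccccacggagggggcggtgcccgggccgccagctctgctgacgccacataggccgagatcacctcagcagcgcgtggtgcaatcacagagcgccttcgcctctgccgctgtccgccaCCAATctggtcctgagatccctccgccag
Mvd (chr8:122443423-122443572, minus strand): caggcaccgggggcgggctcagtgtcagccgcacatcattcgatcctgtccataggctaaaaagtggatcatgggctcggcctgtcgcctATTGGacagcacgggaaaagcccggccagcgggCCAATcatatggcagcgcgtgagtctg
Mvk (chr5:114444119-114444268, plus strand): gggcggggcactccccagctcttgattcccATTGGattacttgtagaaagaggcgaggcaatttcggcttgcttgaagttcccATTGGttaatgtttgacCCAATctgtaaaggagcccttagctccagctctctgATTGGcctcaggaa
Idi1 (chr13:8885456-8885605, plus strand): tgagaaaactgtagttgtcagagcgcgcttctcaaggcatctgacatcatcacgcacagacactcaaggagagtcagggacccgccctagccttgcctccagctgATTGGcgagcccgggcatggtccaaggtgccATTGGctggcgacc
Acat2 (chr17:12960726-12960875, minus strand): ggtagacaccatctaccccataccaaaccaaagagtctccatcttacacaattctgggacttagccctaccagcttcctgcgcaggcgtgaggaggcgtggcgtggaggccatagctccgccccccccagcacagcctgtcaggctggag
Fasn (chr11:120824548-120824697, minus strand): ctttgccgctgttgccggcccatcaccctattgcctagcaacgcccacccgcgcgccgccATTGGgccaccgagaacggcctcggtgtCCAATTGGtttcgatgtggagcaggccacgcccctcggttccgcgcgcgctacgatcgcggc
Vldlr (chr19:27216870-27217019, plus strand): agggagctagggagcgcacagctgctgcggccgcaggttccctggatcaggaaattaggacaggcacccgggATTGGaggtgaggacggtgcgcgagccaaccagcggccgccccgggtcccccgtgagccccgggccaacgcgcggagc

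RefSeq promoters, reaching from 250 bases before to 50 bases after the start, were in the reference table for 27 of the 35 genes. Those not matched were Fdps, Fdft1, Sqle, Scd1, Scd2, Fads1, Stard4 and Abcg1. A CCAAT box on either strand stood in at least 1 promoter of 13 of 14 sterol synthesis genes (92.9%), all but Acat2, and in 13 of their 17 promoter windows. It stood in 3 of 6 fatty acid synthesis genes (50%), 4 of 5 SREBP regulators (80%) and 1 of 2 uptake, transfer and efflux genes (50%). By promoter window it stood in 3 of 6, 5 of 10 and 1 of 3 for these groups. Of the 9836 genes tested on the arrays that had a promoter, 42.9% held it. The 31 CCAAT boxes of the sterol synthesis promoters lay before the start in 28 cases, and 9 of the 14 genes had at least 2. The exact sterol element core stood in 1 member gene, Hmgcs1, at position -137 from the start, against 1.38% of tested genes. With at most 1 letter changed, a form searched after seeing the data, it stood in 7 of 14 sterol synthesis genes (50%) and in 1 of 6 fatty acid synthesis genes (16.7%), against 29.2% of tested genes. This form also stood in 3 of 5 SREBP regulators (60%) and in 1 of 2 uptake, transfer and efflux genes (50%), so it was not particular to the sterol genes. The ATF4 element TGATGNAAT and the DR4 element bound by LXR stood in none of the 36 promoter windows of the 27 genes. They stood in 0.6% and 0% of tested genes, and in 1.08% and 0.0148% of all 27025 genes of the table. Both are so rare that their absence here says little. These are letter matches and do not show that a factor binds.

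The lines carried B-lineage markers, and most hepatocyte markers checked were dim. All 9 B-lineage genes checked, among them Pax5, Ebf1 and Igll1, were well above background in both channels on all 4 arrays. Of 8 hepatocyte genes, 5 were not well above background in either channel on any array, among them Alb, Afp and Apoa1, whereas Apoa2 was measured in both channels on every array and Ttpa in R/R on 3 arrays. Of 7 erythroid genes 5 were likewise dim throughout, and Hbb-bt was measured, from -2.40 to -1.40. Of the 7 myeloid genes 4 were well above background in R/R on all arrays, and Itgam ranged from -0.98 to 0.26 across the 4 arrays. Of 5 megakaryocyte and mast genes 4 were dim throughout. Of 5 T and NK genes 2 were dim throughout, and Cd3e and Klrb1c were well above background in both channels on all arrays. Klrb1c had -0.50, -0.23 and 1.52 in clones 1, 2 and 3 and 0.13 on the pool array. Between 42.8% and 53.4% of spots per channel were well above background, and the log2 ratios of replicate spots scattered within an array by 0.090 to 0.10 (median SD). Over all genes tested the median SD between the 3 clones was 0.17, and the median log2 ratio lay between -0.025 and 0.011 on the 4 arrays. The number of arrays limits the precision, and because 1 WT pool was used throughout, the tests leave out the spread between WT lines. In RNA from whole cultures, fewer cells that express a gene and less of its RNA per cell cannot be told apart.

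Of the 34 genes tested, 1 fell and none rose in R/R cells (limma, Benjamini-Hochberg adjusted p under 0.05 over all 20051 genes). Of all genes tested 0.374% were called lower and 0.15% higher. The called gene was Vldlr, which encodes the very-low-density lipoprotein receptor. At an unadjusted p under 0.05 there were 7 members (20.6%), against 15.4% of all genes tested. These were Idi1 and Hsd17b7, higher in R/R cells, and Vldlr, Insig2, Scd1, Scd2 and Scap, lower in R/R cells. Values of one sign on all 4 arrays were seen in 12 members, 7 above 0 and 5 below, and in 30.8% of all genes, whose arrays share the WT pool.

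**Figure D1:**
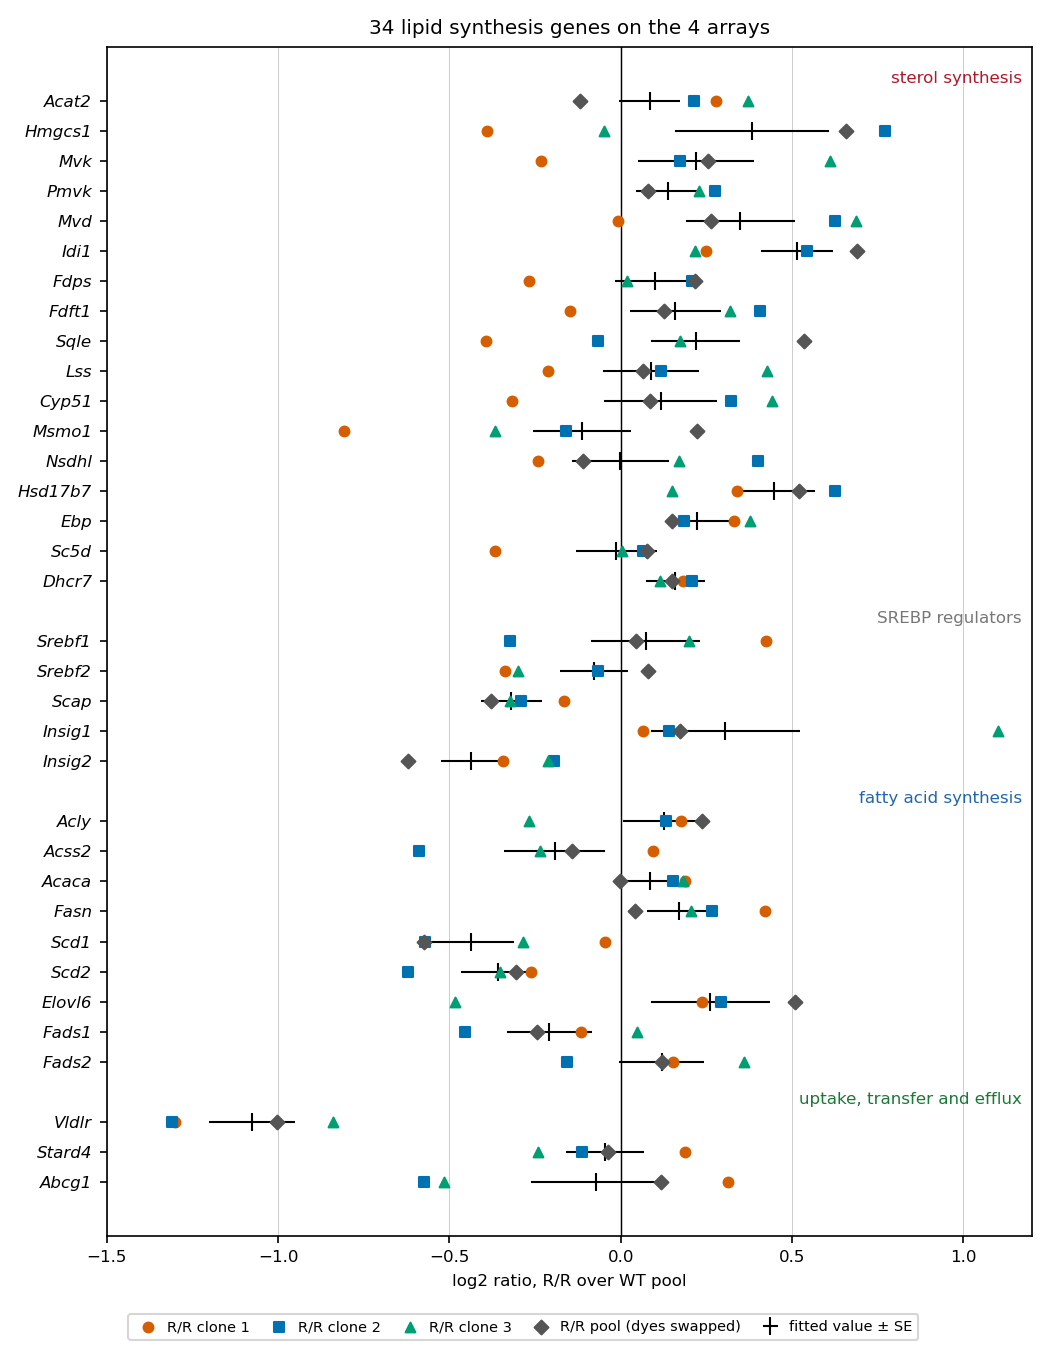
Log2 ratio of R/R over the WT pool (x axis) for each of the 34 genes tested (y axis, by role), with a symbol for each array and the fitted value with its SE in black. Vldlr lies at -0.84 or lower on every array, and clone 1 (circles) lies left of clones 2 and 3 in 12 of the 17 sterol synthesis genes.

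The sterol synthesis genes as a group lay above 0 in the fit and differed between the clones. Fitted values were above 0 in 14 of 17 genes (82.4%), with a median of 0.16, against 46.4% and a median of -0.016 over all genes tested. None passed the test. By array, the median of the 17 genes was -0.21 in clone 1, 0.21 in clone 2, 0.22 in clone 3 and 0.15 on the pool array. In clone 1 only 6 of the 17 genes lay above 0, and on each of the other 3 arrays 15 did. These signs depended on the loess step. With median centring in its place the median of all genes tested moved to 0.33, 0.57, 0.13 and -0.42 in clones 1, 2, 3 and the pool, and relative to it the sterol median was 0.091, 0.51, 0.54 and -0.030, above 0 in clone 1 and below 0 on the pool array.

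Among the enzymes that make mevalonate and turn it into isoprenoids, Hmgcs1 differed most between clones. Hmgcs1, the cytosolic HMG-CoA synthase, had log2 ratios of -0.39 in clone 1, 0.77 in clone 2, -0.050 in clone 3 and 0.66 on the pool array. Its fitted value was 0.38 ± 0.22 (SE, from 3 clones and the pool, limma adjusted p = 0.462). Clone 2 and the pool were high and clones 1 and 3 near or below 0, so the arrays fell on both sides. Its clones spanned 1.16 on the log2 scale. A span over 1 was seen in 2 members, Hmgcs1 and Insig1, and in 5.04% of all genes. Acat2, the cytosolic thiolase that precedes it, had 0.28, 0.21 and 0.37 in the clones and -0.12 on the pool array.

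Mvk, Pmvk and Mvd encode the kinases and the decarboxylase that carry mevalonate to isopentenyl diphosphate. Mvk had -0.23 in clone 1, 0.17 in clone 2, 0.61 in clone 3 and 0.25 on the pool array, and a second probe gave -0.17, 0.21, 0.56 and 0.065. Both probes thus placed clone 1 lowest and clone 3 highest. Mvd had -0.0076 in clone 1, 0.63 in clone 2, 0.69 in clone 3 and 0.26 on the pool array (fitted 0.35 ± 0.16, limma adjusted p = 0.368). Pmvk stayed close together, between 0.080 and 0.27 on the 4 arrays.

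Idi1, which interconverts isopentenyl and dimethylallyl diphosphate, had the highest fitted value of the sterol genes. Its ratios were 0.25, 0.54 and 0.22 in clones 1, 2 and 3 and 0.69 on the pool array. In signal, it had 3298, 4085, 3358 and 3943 intensity units in clones 1, 2, 3 and the R/R pool, against 2778, 2804, 2888 and 2444 in the WT channels of the same arrays. Every R/R value was above every WT value. The WT values are repeat readings of the same WT pool, and signals were not scaled between arrays. How many of all genes separate in this way was not counted, here or for Insig2, Scd1 and Vldlr below. Among the members, the signals of Ebp, Hsd17b7, Scap and Scd2 also separated, so this was not particular to the genes described. The fitted value of Idi1 was 0.51 ± 0.11 (1.43-fold), which did not pass the threshold (limma adjusted p = 0.135). Fdps, which builds farnesyl diphosphate, had -0.27 in clone 1, 0.21 in clone 2, 0.018 in clone 3 and 0.22 on the pool array.

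At the steps to squalene and on to lanosterol, clone 1 was again the lowest clone. Fdft1, squalene synthase, had -0.15 in clone 1, 0.41 in clone 2, 0.32 in clone 3 and 0.13 on the pool array. Sqle, the squalene epoxidase that is often rate-limiting, had -0.39, -0.067 and 0.17 in the clones and 0.53 on the pool array. Its pool value lay above all 3 clones. Lss, lanosterol synthase, had -0.21 in clone 1, 0.12 in clone 2, 0.43 in clone 3 and 0.065 on the pool array. The highest clone was clone 2 for Fdft1 and clone 3 for Sqle and Lss.

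Among the enzymes that trim lanosterol to cholesterol, clone 1 was lowest for some and not for others. Cyp51, the lanosterol demethylase, had -0.32 in clone 1, 0.32 in clone 2, 0.44 in clone 3 and 0.086 on the pool array. Msmo1, the methylsterol monooxygenase that acts next, had -0.81, -0.16 and -0.37 in the clones and 0.22 on the pool array, the lowest clone 1 value of any sterol gene here. Nsdhl, which removes the C4 carboxyl groups, had -0.24, 0.40 and 0.17 in the clones and -0.11 on the pool array. Its dimmer second probe had 0.11, -0.046 and 0.061 in the clones and 0.40 on the pool array, with clone 2 in place of clone 1 lowest.

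Hsd17b7, the sterol ketoreductase, was above 0 on every array, with 0.34, 0.63 and 0.15 in the clones and 0.52 on the pool array. Its fitted value was 0.45 ± 0.12 (1.36-fold, limma adjusted p = 0.187), and a second probe gave 0.19, 0.61, 0.25 and 0.40. Ebp, the sterol isomerase, lay between 0.15 and 0.38 on the 4 arrays. Dhcr7, the last enzyme of one branch, lay between 0.12 and 0.21, with a clone SD of 0.048, smaller than that of most genes. Sc5d, the sterol desaturase before it, had -0.37 in clone 1, 0.064 in clone 2, 0.0033 in clone 3 and 0.075 on the pool array. The clone differences therefore were not shared by all enzymes of the pathway.

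**Figure D2:**
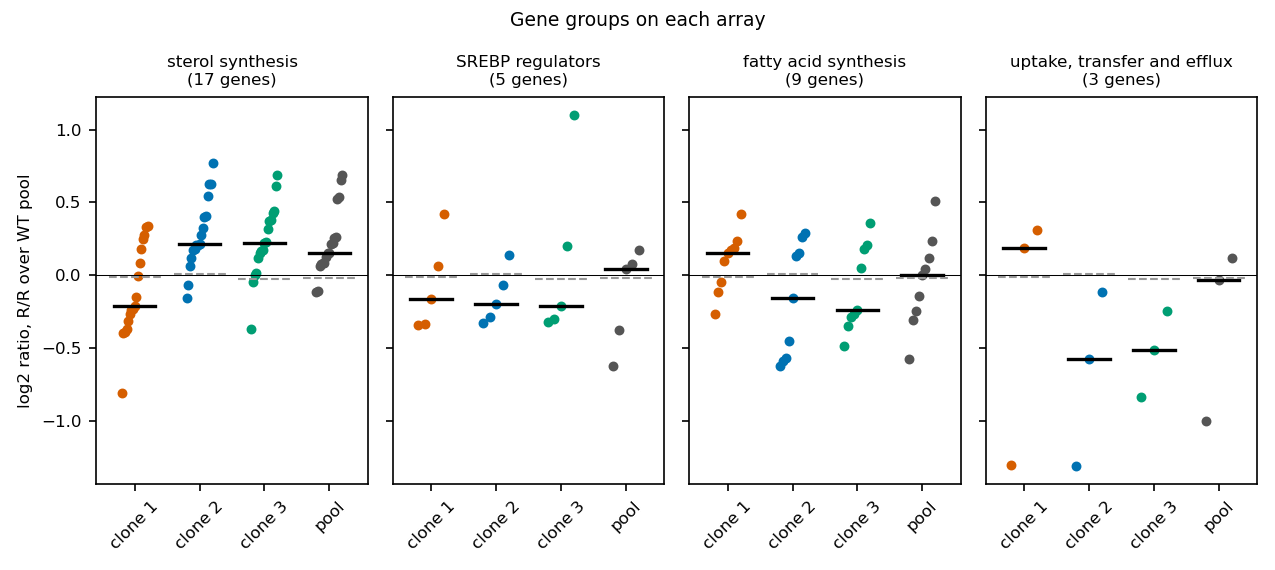
Log2 ratio of R/R over the WT pool (y axis) for the genes of each role on each array (x axis), 1 point a gene, with the group's median as a black line and the median of all genes tested as a dashed line. The sterol synthesis median is -0.21 in clone 1 and 0.15 to 0.22 on the other arrays, while the fatty acid synthesis median is 0.15 in clone 1 and -0.24 to -0.0019 on the others. With median centring in place of loess the sterol median relative to all genes is 0.091 in clone 1 and -0.030 on the pool array, and with the mean of probes the fatty acid median is 0.048 in clone 3.

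The regulators of the pathway were split. Insig2, an INSIG protein under other controls than Insig1, had -0.34, -0.20 and -0.21 in clones 1, 2 and 3 and -0.62 on the pool array. In signal it had 421.7, 482.6, 477.3 and 400.9 units in R/R, against 535.6, 552.7, 552.8 and 616.7 units in WT, with no overlap. Its fitted value was -0.44 ± 0.09 (1.35-fold higher in WT), which did not pass (limma adjusted p = 0.135). A second Insig2 probe, with another transcript accession, gave -0.20, -0.53, 0.0022 and 0.22, so the probes disagreed. Scap had -0.17, -0.29 and -0.32 in the clones and -0.38 on the pool array (fitted -0.32 ± 0.09, limma adjusted p = 0.202).

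Insig1, an SREBP target whose product retains SCAP, had 0.066 in clone 1, 0.14 in clone 2, 1.1 in clone 3 and 0.17 on the pool array. Clone 3 stood apart, with a signal of 252.8 units in R/R against 118 units in WT on its array. The fitted value was 0.30 ± 0.22 (limma adjusted p = 0.537). Srebf1 had 0.42, -0.32 and 0.20 in the clones and 0.045 on the pool array, with clone 1 highest and clone 2 below 0. Srebf2 had -0.34, -0.066 and -0.30 in the clones and 0.078 on the pool array, and a dimmer probe lay between -0.14 and 0.065.

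The fatty acid synthesis genes were divided in sign in the fit, and their median was highest in clone 1, where that of the sterol genes was lowest. Fitted values were above 0 in 5 of 9 genes (55.6%), with a median of 0.086, and none passed the test. This median was 0.012 on the clones alone, 0.037 with median centring and 0.044 on the scanner software's ratios. By array the median was 0.15 in clone 1, -0.16 in clone 2, -0.24 in clone 3 and -0.0019 on the pool array. With the mean of probes it was 0.048 in clone 3 and 0.042 on the pool array, both above 0, and on the scanner software's ratios it was -0.47 in clone 2. With median centring, relative to all genes, it was 0.34 in clone 1, -0.17 in clone 2, 0.17 in clone 3 and -0.096 on the pool array. The sterol median minus the fatty acid median was -0.36 in clone 1, 0.37 in clone 2, 0.45 in clone 3 and 0.15 on the pool array. It kept these signs in the 7 other settings computed, at 0.16 in clone 3 with the mean of probes, 0.75 in clone 2 on the scanner software's ratios and 0.065 on the pool array with median centring. With 1 sample of each clone this has no test.

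The stearoyl-CoA desaturase genes, whose products put the first double bond into fatty acids, were below 0 on all arrays. Scd1 had -0.046, -0.57 and -0.29 in the clones and -0.57 on the pool array, from R/R signals of 3920, 3018, 3555 and 3211 units, against WT signals of 4045, 4486, 4333 and 4782 units. All 4 R/R signals were below all 4 WT signals. Its fitted value was -0.44 ± 0.12 (1.35-fold higher in WT, limma adjusted p = 0.207). Scd2 had -0.26, -0.62 and -0.35 in the clones and -0.31 on the pool array (fitted -0.36 ± 0.11, limma adjusted p = 0.220). Its R/R signals likewise all lay below its WT signals. These 2 genes are paralogs, and how far their probes share signal was not tested.

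The enzymes that supply acetyl-CoA and build the chain took both signs. Acly, which makes cytosolic acetyl-CoA from citrate, had 0.18, 0.13 and -0.27 in the clones and 0.24 on the pool array, and a dimmer probe had 0.086, -0.095, 0.38 and 0.20, with clone 3 highest instead of lowest. Acss2, which makes it from acetate, had 0.095, -0.59 and -0.24 in the clones and -0.14 on the pool array. Its dimmer probe had 0.11, 0.11, 0.074 and 0.046 and did not show the low clone 2. Acaca, the acetyl-CoA carboxylase that commits carbon to fatty acids, had 0.19, 0.15 and 0.18 in the clones and -0.0019 on the pool array. Its clone SD of 0.018 was among the lowest 0.883% of genes, but this held for the brightest probe only. A dimmer Acaca probe had 0.28, 0.045 and 0.11 in the clones, and another had 0.38, 0.025 and 0.25. Fasn, fatty acid synthase, was above 0 on all arrays, from 0.042 on the pool array to 0.42 in clone 1 (fitted 0.17 ± 0.09, limma adjusted p = 0.442).

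Elovl6, which lengthens palmitate, had 0.24 in clone 1, 0.29 in clone 2, -0.49 in clone 3 and 0.51 on the pool array. Clone 3 was the one array below 0. Fads1 and Fads2, the delta-5 and delta-6 desaturases of polyunsaturated fatty acids, ranged from -0.45 to 0.048 and from -0.16 to 0.36, with clone 2 lowest and clone 3 highest for both.

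Vldlr was the one member that fell. The receptor binds apolipoprotein E-rich particles, and its gene is also known as a target of the stress factor ATF4. Its log2 ratios were -1.30, -1.31 and -0.84 in clones 1, 2 and 3 and -1.0 on the pool array. The R/R signals were 296.6, 313.1, 427.1 and 364.8 units, against 730.6, 776.9, 764.4 and 731.3 units in WT. The R/R values were all under the lowest WT value, and both channels were well above background on all arrays. The fitted value was -1.08 ± 0.13, a level 2.11-fold higher in WT (limma adjusted p = 0.048).

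A second, dim Vldlr probe was not well above background in R/R on any array and was above it in WT on all 4. There the WT level was at least 1.18-fold higher, a bound taken against the higher of the dim signal and the lowest signal called well above background. Its measured ratios were -0.34, -0.25, -0.14 and -0.21. The call of the brighter probe was narrow. It was lost without clone 1 (limma adjusted p = 0.095) and without clone 2 (0.076), on the log ratios computed by the scanner software (0.159), with median centring (0.082), and with 5 other settings (0.051 to 0.086). It was kept without clone 3 (0.016), on the clones alone (0.041), with the strict filter (0.049), with no dye term (0.0027) and with an intensity trend (0.038). The ratio stayed between -1.21 and -1.04 in these settings, apart from -0.65 with the mean of both probes.

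The other genes of this group differed between clones. Abcg1, which encodes a cholesterol exporter to HDL and is a known LXR target, had 0.31 in clone 1, -0.57 in clone 2, -0.52 in clone 3 and 0.12 on the pool array. The R/R signals of clones 1, 2, 3 and the pool were 1577, 905.4, 928.5 and 1282 units, against 1270, 1348, 1328 and 1183 units in WT. The fitted value was -0.071 ± 0.19 (limma adjusted p = 0.881), since the arrays took both signs. Stard4, which encodes a cytosolic cholesterol carrier, had 0.19, -0.11 and -0.24 in the clones and -0.036 on the pool array. Its dimmer probe had -0.058, -0.063, 0.42 and -0.019, with clone 3 highest instead of lowest.

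**Figure D3:**
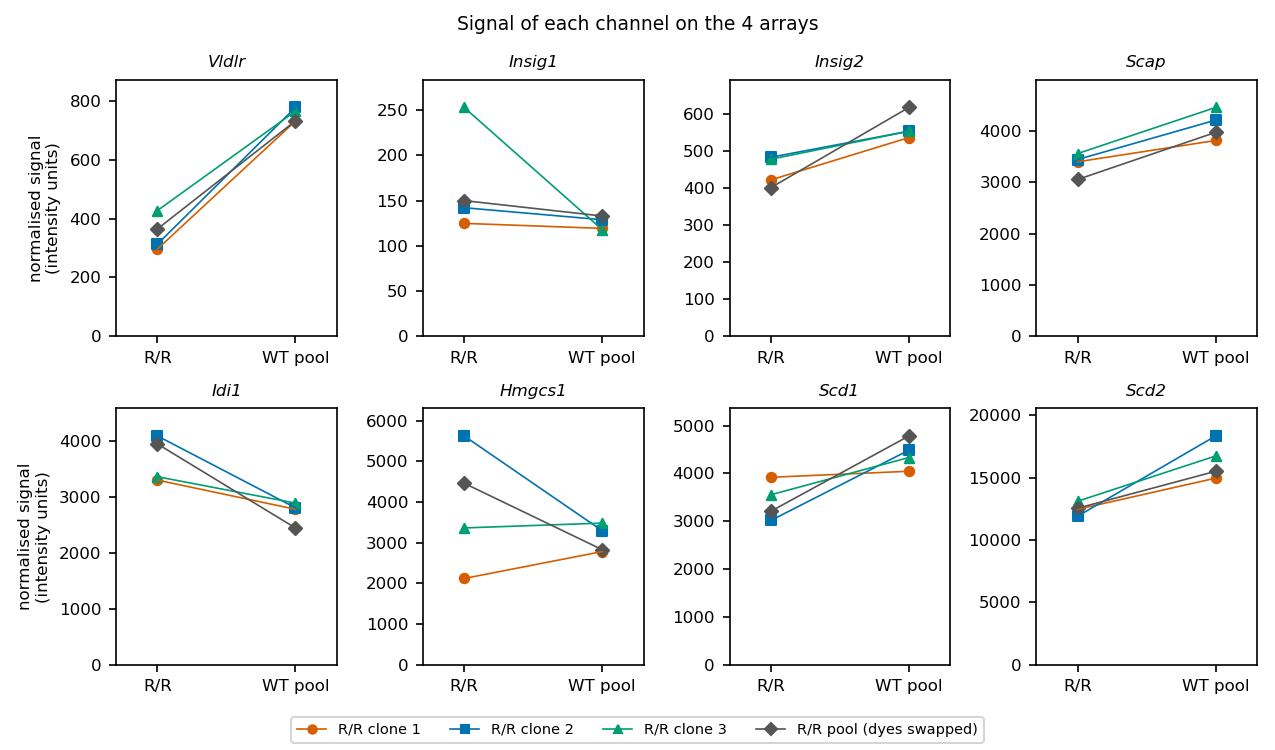
Normalised signal in intensity units (y axis, from 0) in the R/R and the WT channel (x axis) of each array, joined by a line per array, for 8 genes. The R/R points of Vldlr (296.6 to 427.1 units) lie below all WT points (730.6 to 776.9 units), and for Insig1 clone 3 stands apart at 252.8 units.

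The clones were then compared with each other, in which the shared WT pool largely cancels. Clone 1 lay below the mean of clones 2 and 3 in 15 of 17 sterol synthesis genes and above it in 9 of 9 fatty acid synthesis genes. Over all genes tested it lay below that mean in 50.9% and above it in 49.1%. The median difference was -0.45 on the log2 scale for the sterol genes, 0.22 for the fatty acid genes and -0.0044 for all genes. Clone 1 was the lowest of the 3 clones in 12 of 17 sterol genes and 0 of 9 fatty acid genes, against 26.2% of all genes. It was the highest in 0 sterol genes and in 6 fatty acid genes, against 28.1% of all genes.

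The largest sterol differences were in Hmgcs1 (-0.75), Cyp51 (-0.70), Mvd (-0.66) and Mvk (-0.62). Pmvk, Idi1, Hsd17b7, Acat2, Dhcr7 and Ebp lay between -0.17 and 0.051. In the fatty acid group the differences ran from 0.021 in Acaca to 0.51 in Acss2. The dimmer probes gave 0.015 for Acss2, -0.054 for Acly, and 0.21 and 0.24 for Acaca, so the sign for Acly depended on the probe. Among sterol genes the dimmer probes gave -0.56 for Mvk, -0.24 for Hsd17b7 and -0.20 for Pmvk, but 0.11 for Nsdhl. Srebf1 stood on the side of the fatty acid genes at 0.49, with a low clone 2, and Abcg1 higher at 0.86. Insig1 stood at -0.55, set by clone 3. Clone 1 was known to be low for cholesterol synthesis genes when these comparisons were made, so they are a description with no test. B-lineage markers had median ratios of 0.072, -0.27 and 0.24 in clones 1, 2 and 3, and their part in these differences was not tested.

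**Figure D4:**
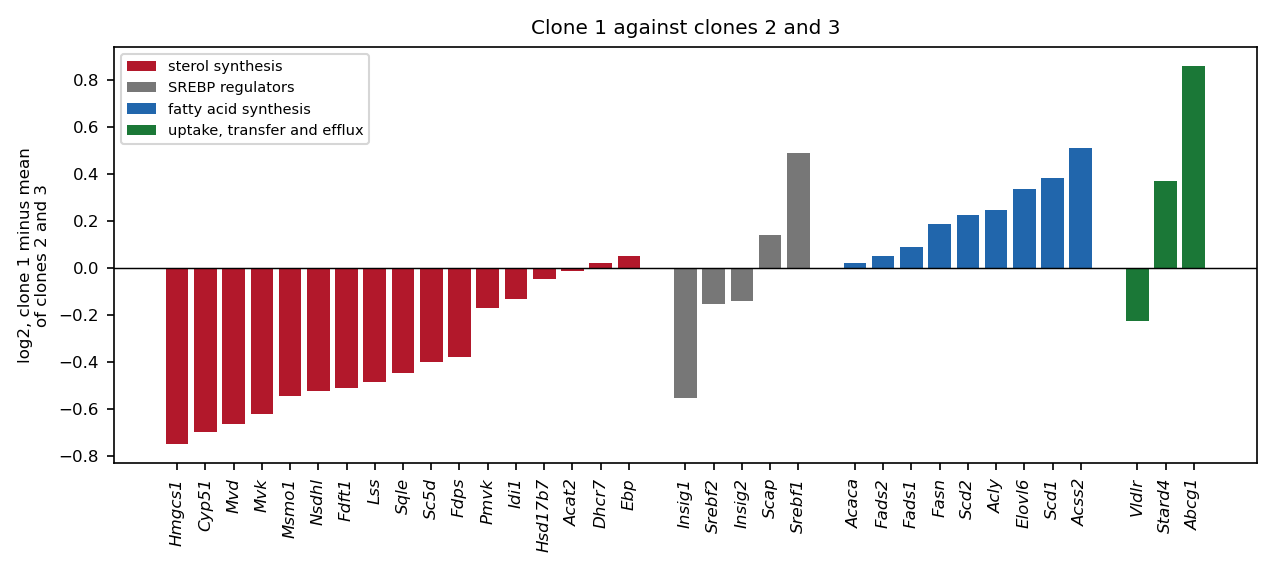
Difference on the log2 scale between clone 1 and the mean of clones 2 and 3 (y axis) for each gene tested (x axis, sorted within its role). Bars of sterol synthesis genes reach down to -0.75 in Hmgcs1, and all 9 bars of fatty acid synthesis genes are above 0, with the brightest probe of each gene.

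The pool array lay outside the range of the clones about as often in the members as over all genes. It lay above the highest clone for 8 of 34 members and below the lowest for 7, against 20.7% and 24.4% of all genes. For Msmo1 the pool value exceeded the clone mean by 0.67, for Sqle by 0.63 and for Hmgcs1 by 0.55. Dye and the makeup of the R/R pool cannot be told apart in this design.

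Of 49 related genes of lipid metabolism, 46 passed the filter and none was called (limma, adjusted over all genes). At an unadjusted p under 0.05 there were 8 (17.4%), 7 higher and 1 lower in R/R cells, against 15.4% of all genes. In the fit, 13 of 22 sterol-related and 16 of 24 fatty acid-related genes lay above 0. The smallest p on the sterol side belonged to Lrp8, the apolipoprotein E receptor closest in family to Vldlr, with 0.61, 0.47 and 0.40 in the clones and 0.40 on the pool array (fitted 0.45 ± 0.09, limma adjusted p = 0.139). It was above 0 on all 4 arrays, as were 8 of the 22 sterol-related genes, itself among them, and 14.6% of all genes. Rnf145 and Tmem97 had fitted values of 0.27 ± 0.10 and 0.32 ± 0.14.

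On the fatty acid side, Cd36, a fatty acid and lipoprotein receptor, had -0.46, -0.51 and -1.41 in the clones and -0.76 on the pool array (fitted -0.78 ± 0.20, limma adjusted p = 0.185). Fabp5, a fatty acid carrier, had 1.08, 0.36 and 0.041 in the clones and 0.89 on the pool array (fitted 0.69 ± 0.20, limma adjusted p = 0.217). The chain-lengthening genes Hacd3 and Elovl1 had 0.33 ± 0.10 and 0.36 ± 0.12. The 22 sterol-related genes, which include regulators and lipid carriers, had a median difference between clone 1 and clones 2 and 3 of -0.044, and the 24 fatty acid-related genes one of -0.0052.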

How the data were processed

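Spot and background intensity values, as deposited by the authors, are median pixel brightnesses from Agilent Feature Extraction 11.5.1.1, uncorrected, per the file headers. The log10 ratios of processed Cy5 over Cy3 were also deposited and served as an alternative, per the file headers. The deposited table of processed ratios was not used, since its row numbers match no probe name. Per the labels' protocols, 100 ng of RNA with integrity numbers of 9.8 to 10.0 was labelled.

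With limma 3.58.1 in R 4.3.3, the background was corrected by normexp with an offset of 50, and loess was run in each array with control spots at weight 0, and 210 to 265 outlier spots per array were left out. Of 55681 probes, 27656 had a gene symbol through unversioned RefSeq accessions of GRCm38.p6. Probes well above background in R/R or in WT on at least 3 arrays were kept (26450), and the brightest per gene gave 20051 genes. No member probe was saturated. The linear model had terms for genotype and for dye orientation, which gives the pool as much weight as the clone mean. The spread comes from the clones, with 2 residual degrees of freedom. Whether clones 1 and 2 are separate origins is not stated, and p-values measure only the spread among these samples. Two-sided p-values were adjusted by Benjamini-Hochberg. The fit was tested on simulated data. The members, roles, related genes, markers and motifs were chosen with earlier results of these data known. Named genes were all members and, of the related genes, any called gene and the 4 of smallest p in each of 2 lists, with marker genes at or near background. One related gene that meets this rule is not reported here. Markers measured above background were named after their values were seen. Alternatives were other background, scaling, filter, probe, dye and clone choices, named with their effects in the closing part.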

Additional observations from a re-analysis of the deposited data

Results flagged for a closer look

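For 4 members the 3 clones lay on one side of 0 and the R/R pool on the other. Acat2 had a clone mean of 0.29 and a pool value of -0.12, a difference of pool minus clones of -0.41. Msmo1 had a clone mean of -0.44 and a pool value of 0.22, a difference of 0.67. Srebf2 had a clone mean of -0.23 and a pool value of 0.078, a difference of 0.31. Its dimmer probe had 0.0084, -0.14 and 0.065 in the clones and -0.026 on the pool array, and did not show the split. Acaca had a clone mean of 0.17 and a pool value of -0.0019, close to 0, a difference of -0.18. Its dimmer probes had 0.028 and 0.12 on the pool array, above 0 like their clones. A split between the 3 clones and the pool was seen in 12.0% of all genes, each read by its brightest probe. The dye term, which tests these differences, had a limma adjusted p of 1.00 for each of the 4 genes.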

How the results depend on the processing

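No paired analysis was possible because the clone numbers have no counterpart in the single R/R pool or the WT pool. Across 14 alternatives, 451 of 476 recomputed member values kept their direction and side of the threshold, 16 uncalled values changed sign, and the Vldlr call was lost in 9. Part of this count was fixed in advance. With no filter, the strict filter or an intensity trend the fitted ratio of a member stayed the same, and only its adjusted p could move. The mean of probes likewise left the ratio of a gene with a single probe unchanged. Members called lower were 0, in place of 1, with the scanner ratios, offset 16, median centring, scaling, no filter, the mean of probes, clones 1 and 2 averaged, and without clone 1 or clone 2 (0 to 1 over the clones left out). Over all genes, 30 higher and 75 lower became 2 and 28 with median centring, 6 and 44 on the scanner software's ratios, 490 and 650 with no dye term, 107 and 203 at an adjusted p under 0.10, 12 to 88 and 49 to 176 without 1 clone, and 48 lower with the strict filter. With no dye term 2 related genes were higher and 1 lower. The median of the SREBP regulators, -0.078, was -0.054 with the scanner ratios, -0.052 with the mean of probes, -0.23 on the clones alone, -0.16 with no dye term and -0.12 to -0.052 without 1 clone. Their clone 1 difference of -0.14 was -0.11 with the scanner ratios and -0.039 with the mean of probes. The fatty acid median of 0.086 lay between 0.012 and 0.11, and that of uptake, transfer and efflux, -0.071, between -0.26 and -0.0072. The median clone 1 difference of uptake, transfer and efflux, 0.37, was 0.065 with the mean of probes. The sterol and fatty acid clone 1 differences stayed at -0.48 to -0.40 and 0.18 to 0.22. The causes were not tested.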
